A study of Homo sapiens with 16 samples.

Results

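Keratins are the intermediate filament proteins of epithelial cells, and filaggrin is the epidermal protein that bundles them. The 9 keratin genes KRT5, KRT7, KRT8, KRT17, KRT18, KRT19, KRT23, KRT80 and KRT81 and the filaggrin gene FLG were taken from the count table by their symbols, which gave 10 of 59428 genes. Each of the 10 had at least 1 count. RNA was measured in 4 groups of 4 libraries, namely OVCAR3 with DMSO, OVCAR3 with 7.5 µM olaparib, UWB1.289 with DMSO and UWB1.289 with 3.5 µM olaparib, all harvested after 96 h. Both are serous ovarian carcinoma cell lines, OVCAR3 with an intact BRCA1 gene and UWB1.289 with a deleterious BRCA1 mutation, and olaparib is a PARP inhibitor dissolved in DMSO. Each dose was the IC50 determined for that line. OVCAR3 was grown in RPMI1640 with serum and insulin and UWB1.289 in a mixture of MEGM and RPMI1640 with less serum, so line, BRCA1 status and medium cannot be told apart, nor can line and dose where the drug effects are set side by side.

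Keratin filaments are built from pairs, in which a type I (acidic) keratin binds a type II (basic) keratin. KRT8 and KRT18 form the pair of simple, single-layered epithelia such as those of the ovary and the fallopian tube, with KRT7 (type II) and KRT19 (type I) beside them. KRT5 with KRT14 is the pair of basal cells of stratified epithelia, KRT17 with KRT6A and KRT16 is known from wounded, stressed or hyperproliferating epithelium, and KRT81 is a type II hair keratin. KRT80 is a type II and KRT23 a type I keratin of less well defined pairing. Filaggrin is made as a large precursor with many repeats in the outer layers of the epidermis, where it aggregates keratin filaments as the cells cornify.

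Levels are given in CPM, that is, a gene's counts scaled to a common library size, with library sizes corrected by the TMM method over all 16 libraries. The libraries are 3′ tag libraries, in which a transcript is read near its poly(A) end whatever its length, so CPM was not divided by gene length. Total counts per library lay between 5599571 and 7730228. A group in which no library had more than 3 counts is described as at the detection floor. A gene was called at an edgeR adjusted p below 0.1, more than 2-fold change and a normalized count averaging above 10 in the compared libraries. "Rose" and "fell" are used of called genes only. Fold changes are on the log2 scale with their standard errors (SE), and n = 4 per group throughout. In bulk RNA, fewer cells with a transcript and less of it per cell cannot be told apart. As a check of the label, the summed level of 7 markers of ovarian or fallopian carcinoma (PAX8, MUC16, EPCAM, CDH1, WT1, SOX17 and MSLN) lay between 968 and 1491 CPM in every library, with WT1 at 0 in UWB1.289 with DMSO. Summed over 6 leukocyte markers the level was 3.63 to 8.37 CPM in OVCAR3 and 124 to 212 CPM in UWB1.289, mostly from ITGB2, with CD3E at 0 in every group but OVCAR3 with DMSO. The 6 fibroblast markers summed to 21.7 to 60.8 CPM, with COL3A1 and LUM at 0 in all 4 groups, and the 4 endothelial markers to at most 11.5 CPM. The part of these genes in the keratin results was not tested.

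In the annotation of GENCODE release 44 on hg38, the type II genes lie on chromosome 12 in the order KRT80 (52168996 to 52192014, reverse strand), KRT7 (52232520 to 52252186, forward), KRT81 (52285913 to 52291534, reverse), KRT5 (52514575 to 52520530, reverse) and KRT8 (52897187 to 52949954, reverse). KRT18, although a type I keratin, lies beside KRT8 at 52948871 to 52952906 on the forward strand, and the 2 spans overlap by 1084 bases at their 5′ ends. The other type I genes lie on the reverse strand of chromosome 17, KRT23 at 40922700 to 40937646, KRT19 at 41523617 to 41528308 and KRT17 at 41619442 to 41624842. FLG lies on the reverse strand of chromosome 1 at 152302165 to 152325239 and has 3 exons in its canonical transcript. KRT81 lies wholly within the span of KRT86 and FLG wholly within that of the antisense RNA FLG-AS1. KRT80 lies wholly within the span of LINC00592 and KRT23 within that of another long non-coding RNA, both on the opposite strand. Whether strand was used in the counting is not stated, so reads of such partners may not have been told apart. The 3′ end of KRT7 overlaps KRT86 by 2887 bases on the same strand, where strand would not separate their reads.

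The stretch before the transcription start of FLG is shown because FLG separated the lines more than any other member, and that of KRT5 because KRT5 was at or near 0 throughout. RefSeq's promoter table (GRCh38.p14) matched 3 of the 10 genes, and the start it gives for FLG and KRT5 is also that of the canonical transcript in GENCODE. The 100 bases before the start of FLG (chr1:152325240-152325339, reverse strand) and of KRT5 (chr12:52520395-52520494, reverse strand) read, 5′ to 3′, with capitals marking TATAAA or TGANTCA on either strand:
FLG: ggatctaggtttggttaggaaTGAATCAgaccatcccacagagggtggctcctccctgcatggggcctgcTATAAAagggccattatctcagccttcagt
KRT5: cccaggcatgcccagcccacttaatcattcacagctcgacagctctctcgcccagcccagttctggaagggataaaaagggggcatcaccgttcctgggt
The motif TATAAA, the core of a TATA box, began 30 bases before the start of FLG, and 10.7% of all 35116 promoters in the table held it within 250 bases before the start. TGANTCA, the AP-1 motif, began 79 bases before the start of FLG and was held by 6.57% of promoters. Neither was found in the 250 bases before KRT5, and GGGCGG, the GC box held by 42.6%, in neither gene. These matches describe the letters only.

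With DMSO, the 4 simple epithelial keratins were the most abundant members in UWB1.289, while in OVCAR3 filaggrin stood above KRT7 and below the other 3. In OVCAR3 the order by mean level was KRT18 (1791 ± 67.8 CPM, SD), KRT8 (832 ± 113), KRT19 (810.2 ± 36.9), FLG (449 ± 19.7), KRT7 (345 ± 33.7), KRT80 (55.6 ± 3.16), KRT17 (16.05 ± 3.16), KRT23 (13.6 ± 1.57), KRT81 (1.22 ± 0.859) and KRT5 with no count. The libraries of KRT8 and KRT19 overlapped, as did those of KRT17 and KRT23, and the other neighbours in this order did not. In UWB1.289 the order was KRT18 (4194 ± 192), KRT7 (1412 ± 50.6), KRT8 (1118 ± 99.6), KRT19 (701 ± 24.2), KRT80 (145 ± 8.40), KRT81 (37.96 ± 9.67) and KRT17 (2.71 ± 0.894), followed by KRT5, KRT23 and FLG, which overlapped at 0.307, 0.284 and 0.229 CPM. Together the 9 keratins took 0.387% ± 0.00951 of all counts in OVCAR3 and 0.745% ± 0.0294 in UWB1.289.

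**Figure D1:**
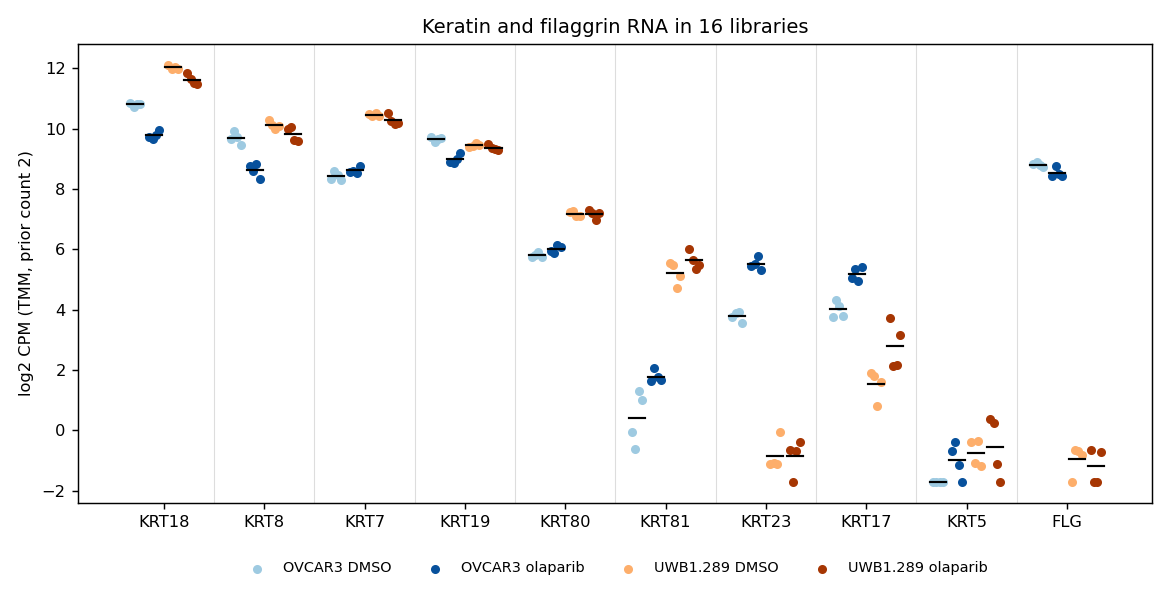
Level of each gene in every library as log2 CPM (TMM, prior count 2). Points are libraries, 4 per group, black bars are group means, and colours mark line and treatment. KRT18 is highest in all 4 groups, FLG and KRT23 are near the bottom of the scale in UWB1.289, and KRT5 is there in all groups.

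The lines were compared without drug to see which keratins set them apart. Of the 9 members that passed the filter on low counts, 7 were called, 4 higher in UWB1.289 (KRT7, KRT18, KRT80 and KRT81) and 3 higher in OVCAR3 (KRT17, KRT23 and FLG), where 38.4% of 13366 tested genes were called. All 9 had 4 libraries of one line apart from the 4 of the other, as had 69.4% of tested genes, and all 9 had an adjusted p below 0.1, as had 79.9%. The median log2 difference was 0.42 over the 9 members and -0.02 over all tested genes.

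Filaggrin differed most. FLG stood at 453, 472, 449 and 424 CPM in the OVCAR3 DMSO libraries, while the 4 UWB1.289 DMSO libraries held 0, 2, 2 and 2 counts, at the floor. The level was at least 985-fold higher in OVCAR3, taking 3 counts per library for UWB1.289 (edgeR adjusted p = 8.66e-30, rank 3 by p among all tested genes). FLG-AS1, which spans FLG on the opposite strand, had 30 to 46 counts in the same OVCAR3 libraries and at most 1 in UWB1.289. Of other genes of the epidermal differentiation complex, TCHH (trichohyalin) was also higher in OVCAR3, with 102 counts in its 4 DMSO libraries and 15 in those of UWB1.289. FLG2 (filaggrin 2), HRNR (hornerin) and IVL (involucrin) had 0 counts in OVCAR3 with DMSO, and LORICRIN had 3 in all.

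Of the keratins higher in UWB1.289, KRT81 had the widest gap. It had 46.8, 44.6, 25.8 and 34.6 CPM in UWB1.289 and 0.660, 0.349, 2.17 and 1.72 CPM in OVCAR3, a gap of 4.87 log2 units (edgeR adjusted p = 1.79e-16, SE 0.263). KRT86, a hair keratin whose sequence is close to that of KRT81, differed in the same direction (3.26, SE 0.246, edgeR adjusted p = 5.17e-13), and with the counts of both added the difference was 4.23. KRT7 was at 1448, 1373, 1462 and 1363 CPM in UWB1.289 and at 324, 388, 357 and 313 CPM in OVCAR3 (2.03, SE 0.0704, edgeR adjusted p = 3.22e-21). The differences of KRT80 (1.38, SE 0.0810, edgeR adjusted p = 1.38e-15) and KRT18 (1.22, SE 0.0609, edgeR adjusted p = 2.33e-17) were smaller but also past 2-fold. KRT8, the partner of KRT18, was higher in UWB1.289 by 0.42 (SE 0.0790, edgeR adjusted p = 1.81e-05), below the fold limit, so the ratio of KRT8 to KRT18 counts was 0.466 ± 0.0788 in OVCAR3 and 0.267 ± 0.0195 in UWB1.289, with no overlap between the libraries of the lines. KRT19 was slightly lower in UWB1.289, by -0.21 (SE 0.0620, edgeR adjusted p = 0.00294).

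KRT23 and KRT17 were the keratins higher in OVCAR3. KRT23 had 80, 84, 104 and 81 counts in OVCAR3 and 1, 1, 1 and 5 counts in UWB1.289, a ratio of 45.0 in pooled counts with a 95% interval from 22.6 to 105 (exact Clopper-Pearson, counting error only) and an edgeR adjusted p of 8.17e-15. The size of this difference depends on UWB1.289 DMSO replicate 4, which held 5 of the 8 counts: the log2 difference was -5.42 with it and -6.25 without it. KRT17 was at 13.4, 19.9, 17.3 and 13.6 CPM in OVCAR3 and at 3.46, 3.16, 1.43 and 2.77 CPM in UWB1.289 (log2 difference -2.56, SE 0.230, edgeR adjusted p = 2.71e-11). KRT6A, known as its partner in stressed epithelium, went the other way, with 2.11 ± 1.02 CPM in OVCAR3 and 62.7 ± 12.6 CPM in UWB1.289 (4.84, SE 0.202, edgeR adjusted p = 3.08e-19). The line with more KRT17 RNA was thus the line with less KRT6A RNA.

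Olaparib against DMSO in OVCAR3 answers which keratins moved with PARP inhibition in the line with intact BRCA1. The simple pair KRT8 and KRT18 fell, and KRT17, KRT23 and KRT81 rose. That is 5 called members of 9 tested, against 5.23% of 13031 tested genes called (2.90% higher and 2.33% lower). The members were chosen with earlier results of these data known, so this count and those of the other comparisons are descriptions. All 9 had an adjusted p below 0.1, as had 31.5% of tested genes, but KRT7 and KRT80 only just, with an adjusted p of up to 0.270 and 0.214 under the alternatives run, and 6 of the 9 had groups that stayed apart, as had 25.7% of tested genes. The median log2 fold change was 0.19 over the members and -0.01 over all tested genes, since members moved in both directions.

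KRT18 stood at 1848, 1694, 1822 and 1802 CPM with DMSO and at 848, 803, 880.0 and 994 CPM with olaparib. It fell by 1.02 log2 units (SE 0.0722, 95% interval -1.17 to -0.87, edgeR adjusted p = 2.72e-09). KRT8 stood at 804, 973, 850.0 and 701 CPM with DMSO and at 434, 388, 455 and 325 CPM with olaparib. It fell by 1.05 (SE 0.102, 95% interval -1.26 to -0.84, edgeR adjusted p = 2.26e-07). In both genes every olaparib library lay below every DMSO library, and both intervals include the limit of 2-fold. Without DMSO replicate 2 the value of KRT8 was -0.97, and without olaparib replicate 4 it was -0.96. Without olaparib replicate 2 that of KRT18 was -0.98, so in these cases the gene was no longer called, although each adjusted p stayed below 0.1. The ratio of KRT8 to KRT18 counts was 0.466 ± 0.0788 with DMSO and 0.460 ± 0.0899 with olaparib, with overlapping libraries.

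The other simple keratins did not follow to the same degree. KRT19 went from 839, 758, 809.7 and 834 CPM to 478, 465, 506 and 582 CPM, a change of -0.67 (SE 0.0762, edgeR adjusted p = 2.02e-06) that kept the groups apart but stayed below 2-fold. KRT7 was at 324, 388, 357 and 313 CPM with DMSO and at 376, 383, 373 and 439 CPM with olaparib (0.19, SE 0.0804, edgeR adjusted p = 0.0948), with overlapping groups. The ratio of KRT7 to KRT8 counts accordingly went from 0.417 ± 0.0218 to 1.01 ± 0.241, with no overlap. KRT18 made up 46.4% ± 2.14 of the keratin counts with DMSO and 37.7% ± 1.44 with olaparib, and KRT7 8.93% ± 0.749 and 16.8% ± 0.899. The 9 keratins together went from 0.387% ± 0.00951 to 0.237% ± 0.0149 of all counts.

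**Figure D2:**
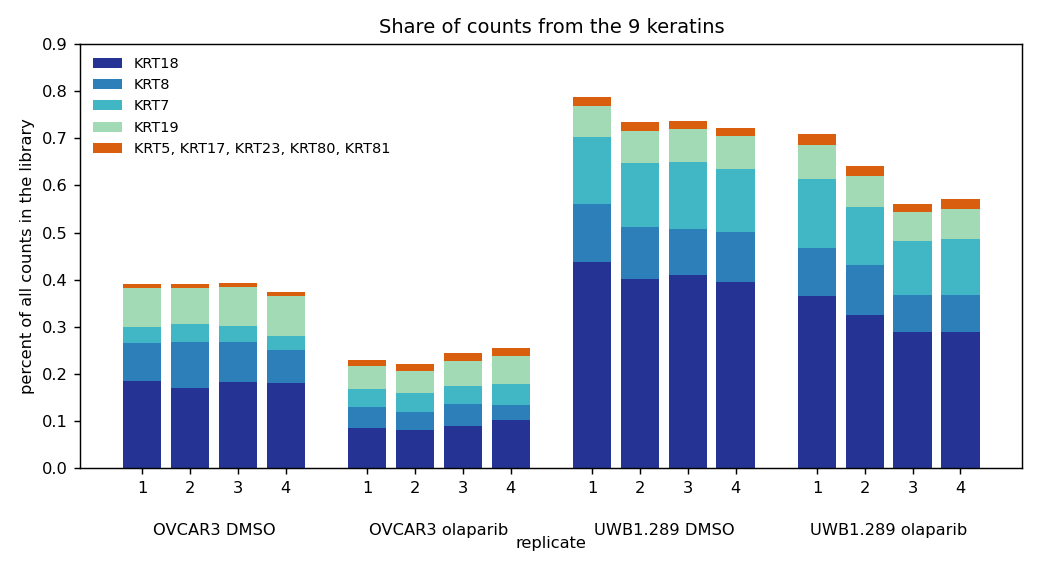
Percent of all counts in each library that came from the 9 keratins, as stacked bars, 1 bar per replicate in each group, with KRT5, KRT17, KRT23, KRT80 and KRT81 summed in the top segment. The OVCAR3 bars reach 0.373 to 0.393% with DMSO and 0.221 to 0.255% with olaparib, and the UWB1.289 bars 0.722 to 0.788% and 0.562 to 0.708%.

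Among the rising genes, KRT23 moved most. It went from 13.2, 14.7, 15.02 and 11.6 CPM to 43.9, 45.0, 55.0 and 39.9 CPM (log2 fold change 1.76, SE 0.131, edgeR adjusted p = 6.07e-09), a 3.38-fold rise with the groups well apart. KRT17 went from 13.4, 19.9, 17.3 and 13.6 CPM to 32.9, 40.2, 31.0 and 42.1 CPM (1.19, SE 0.146, edgeR adjusted p = 4.87e-06). KRT81 rose from a low level, with 4, 2, 15 and 12 counts before and 18, 25, 22 and 21 counts after (1.31, SE 0.407, edgeR adjusted p = 0.0231), and its value ran from 1.03 to 1.73 when each library was left out in turn. With KRT86 counts added the value was 1.10 (edgeR adjusted p = 0.00774). KRT80 (0.21, SE 0.0916, edgeR adjusted p = 0.0967) had overlapping groups, at 52.9 to 59.9 CPM and 58.4 to 70.1 CPM.

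FLG, at 453, 472, 449 and 424 CPM with DMSO, was at 345, 432, 364 and 346 CPM with olaparib (-0.27, SE 0.0783, edgeR adjusted p = 0.0155). Olaparib replicate 2 lay within the DMSO range and the other 3 below it, and the change was far from 2-fold. KRT5 had 0 counts in all 4 DMSO libraries, which allows up to 0.117 CPM, and 2, 3, 1 and 0 counts with olaparib, so both groups were at the floor and no fold is given. Its basal partner KRT14 had no count in either OVCAR3 group.

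In UWB1.289, the line with mutated BRCA1, KRT17 alone among the 7 tested members was called, against 2.21% of 12748 tested genes (1.93% higher and 0.282% lower). The members KRT8, KRT17 and KRT18 had an adjusted p below 0.1, as had 13.9% of tested genes, and KRT17 and KRT18 had groups that did not overlap, as had 14.7%. The median log2 fold change was -0.08 over the members and -0.00 over all tested genes.

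KRT17 went from 3.46, 3.16, 1.43 and 2.77 CPM to 13.01, 4.08, 4.16 and 8.56 CPM, a change of 1.46 log2 units (edgeR adjusted p = 0.00905, SE 0.349). Olaparib replicates 1 and 4 were high and replicates 2 and 3 only just above the DMSO range, and without olaparib replicate 1 the value was 1.06, still called. KRT18 went from 4439, 4069.6, 4251 and 4017 CPM to 3705, 3221, 2897 and 2861 CPM (-0.40, SE 0.0822, edgeR adjusted p = 0.00250), with all 4 olaparib libraries lower. KRT8, at 1251, 1121, 1012 and 1089 CPM and then 1022, 1066, 781 and 770.1 CPM, had overlapping groups (-0.30, SE 0.0994, edgeR adjusted p = 0.0652). Its adjusted p was above 0.1 (up to 0.215) without DMSO replicate 1, 2 or 4 or without olaparib replicate 3 or 4. Neither reached 2-fold.

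For the remaining members no change was called. KRT7 had a log2 fold change of -0.17 (95% interval -0.34 to -0.00, edgeR adjusted p = 0.204), with 1363 to 1462 CPM before and 1138 to 1477 CPM after. KRT19 had -0.08 (95% interval -0.23 to 0.07, edgeR adjusted p = 0.572) and KRT80 -0.00 (95% interval -0.18 to 0.18, edgeR adjusted p = 0.993), intervals that stay well within 2-fold. KRT81 was at 25.8 to 46.8 CPM with DMSO and at 40.8 to 64.9 CPM with olaparib (0.40, 95% interval 0.08 to 0.73, edgeR adjusted p = 0.118), and within each of the 4 replicate numbers the olaparib library was the higher one. In the paired fit, with the replicate number as a block, KRT81 had 0.41 (edgeR adjusted p = 0.00748) and KRT7 -0.18 (edgeR adjusted p = 0.0730). Thus 5 of the 7 members had an adjusted p below 0.1 in place of 3, none of the added ones past 2-fold. The share of all tested genes below 0.1 in the paired fit is not given here. Whether the gain was particular to the members was therefore not tested. KRT5 had 3, 1, 3 and 1 counts with DMSO and 6, 5, 1 and 0 with olaparib, KRT23 had at most 5 counts and FLG at most 2 in any library, so changes of these could not be measured at this depth. The keratins together took 0.745% ± 0.0294 of counts with DMSO and 0.620% ± 0.0686 with olaparib, without overlap.

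**Figure D3:**
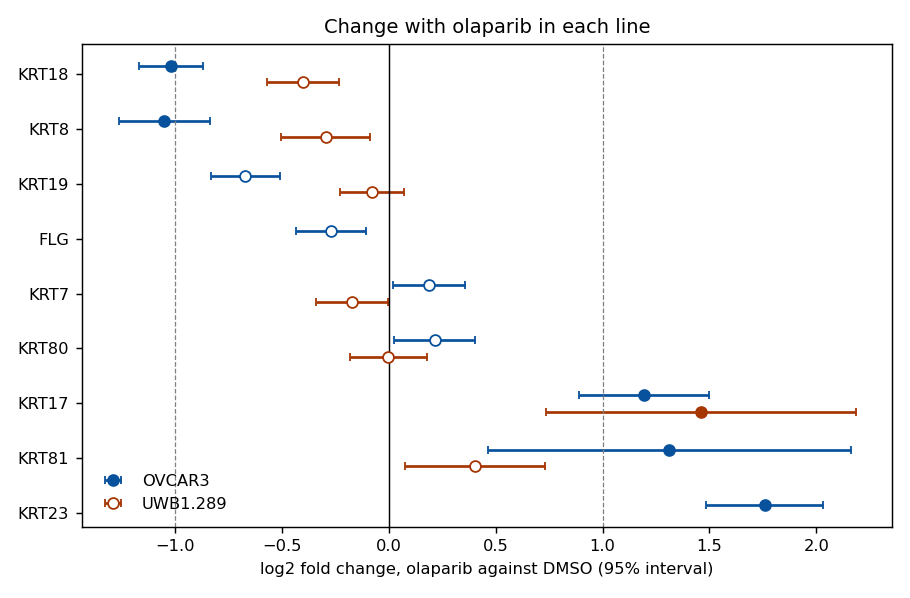
Log2 fold change of olaparib against DMSO with its 95% interval, OVCAR3 in blue and UWB1.289 in orange, with filled points for called genes and dashed lines at 2-fold. KRT18 and KRT8 lie at -1.02 and -1.05 in OVCAR3 and at -0.40 and -0.30 in UWB1.289, and KRT17 lies beyond 1 in both.

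The difference of the drug effect between the lines was tested over all 16 libraries. No member passed all 3 limits, against 3.66% of 14243 tested genes (1.66% with the lower value in UWB1.289). For 4 simple keratins the adjusted p of the difference itself was below 0.1, as for 10.9% of tested genes. The log2 fold change was higher in UWB1.289 by 0.76 for KRT8 (SE 0.155, edgeR adjusted p = 0.00178), by 0.62 for KRT18 (SE 0.111, edgeR adjusted p = 3.76e-04) and by 0.60 for KRT19 (SE 0.104, edgeR adjusted p = 2.66e-04), that is, the values were more negative in OVCAR3, where the dose was also higher. For KRT7 it was lower in UWB1.289 with a log2 difference of -0.36 (edgeR adjusted p = 0.0583, SE 0.117). Without OVCAR3 DMSO replicate 1 or 4 or UWB1.289 olaparib replicate 3 the adjusted p of KRT7 was above 0.1 (up to 0.127). KRT17 gave 0.27 (95% interval -0.50 to 1.04, edgeR adjusted p = 0.761), an interval wide enough to hold a 2-fold difference upward. KRT80 gave -0.21 (95% interval -0.47 to 0.04, edgeR adjusted p = 0.341) and KRT81 -0.89 (95% interval -1.76 to -0.02, edgeR adjusted p = 0.223). The differences of KRT23 and FLG rest on UWB1.289 groups at or near the floor and are not read.

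The rest of the keratin family was mostly silent. Of 21 other type II keratins, 15 had at most 3 counts in every library, and of 24 other type I keratins 19 had. Among those tested, KRT6A was the only one called with olaparib, 1 of 3 type II keratins tested in OVCAR3 and 1 of 2 in UWB1.289, and none of the 3 and 2 type I keratins tested was called. Over all tested genes, 5.23% were called in OVCAR3 and 2.21% in UWB1.289. KRT6A went from 1.32, 1.22, 3.32 and 2.57 CPM to 17.4, 14.0, 11.2 and 17.5 CPM in OVCAR3 (2.79, SE 0.263, edgeR adjusted p = 1.74e-07) and from 46.0, 70.8, 59.9 and 74.0 CPM to 141, 149, 146 and 159 CPM in UWB1.289 (1.25, SE 0.113, edgeR adjusted p = 4.25e-08). As a fold, the rise was larger in OVCAR3 (log2 difference -1.53, SE 0.283, edgeR adjusted p = 5.55e-04), where the DMSO libraries held only 7 to 23 counts. In CPM the rise was larger in UWB1.289. KRT6A has near-identical copies, KRT6B and KRT6C, which had at most 9 and 1 counts in any library, so how reads were split among them is uncertain.

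KRT16, the type I partner of KRT6A, had 3, 1, 5 and 1 counts with DMSO and 15, 11, 17 and 18 counts with olaparib in OVCAR3 (2.47, SE 0.481, edgeR adjusted p = 7.47e-04). It was not called because its average count was 8.65. In UWB1.289 it had 1 count in the DMSO libraries together and 10 in the olaparib libraries. KRT86 was not called with olaparib in OVCAR3 (0.87, edgeR adjusted p = 0.0857) or UWB1.289 (0.31, edgeR adjusted p = 0.230), and KRT14 had 1 count over all 16 libraries. Between the lines, KRT6A, KRT86 and KRT13 were higher in UWB1.289. KRT4 (-7.69, SE 0.261, edgeR adjusted p = 1.80e-21) and KRT15 (-1.49, SE 0.431, edgeR adjusted p = 0.00261) were higher in OVCAR3. KRT4 was at the floor in UWB1.289 with DMSO, with 6 counts in all against 1297 in OVCAR3, so the size of its difference is not measured.

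**Figure D4:**
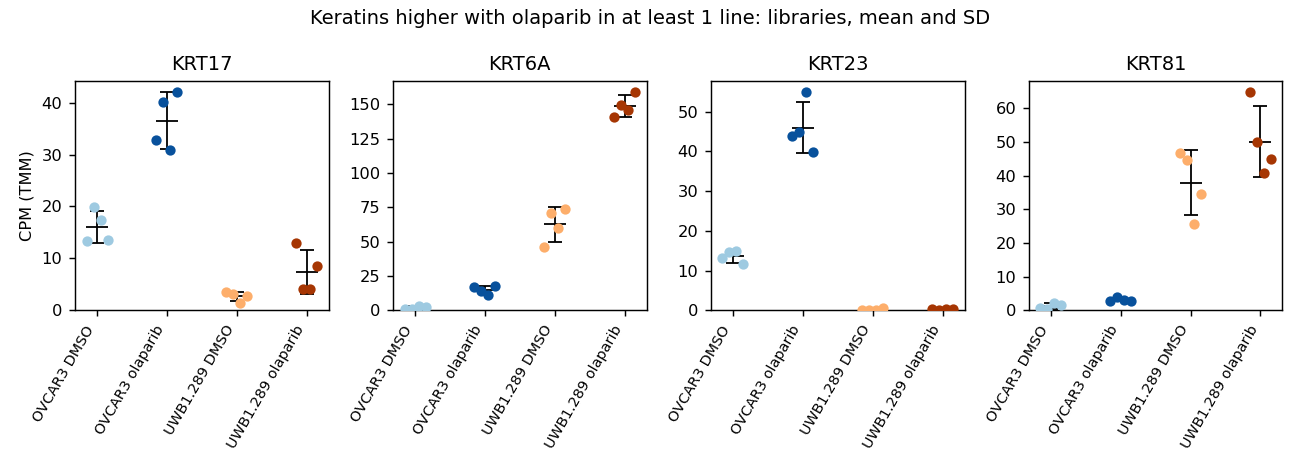
CPM in every library for KRT17, KRT6A, KRT23 and KRT81, with the mean and SD of each group (n = 4). The vertical axes differ between panels and start at 0. KRT17 and KRT6A are higher with olaparib in both lines, KRT23 has 39.9 to 55.0 CPM with olaparib in OVCAR3 and under 1 CPM in UWB1.289, and the UWB1.289 groups of KRT81 overlap.

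Genes that work with keratins were described as lists chosen by function. Over all tested genes, 5.23% were called with olaparib in OVCAR3, 2.21% with olaparib in UWB1.289 and 38.4% between the lines with DMSO. Of 25 genes of the cornified envelope and the filaggrin family, 16 had at most 3 counts in every library, and none of the 3 tested in OVCAR3 or 4 tested in UWB1.289 was called with olaparib. Between the lines CSTA (cystatin A, 5.63, SE 0.564, edgeR adjusted p = 2.72e-10) was higher in UWB1.289. CSTA was at the floor in OVCAR3 with DMSO, with 2 counts in all, so the size of its difference is not measured. TGM1 (transglutaminase 1, 2.67, SE 0.305, edgeR adjusted p = 4.02e-09) was also higher in UWB1.289. TCHH (trichohyalin, -2.78, SE 0.450, edgeR adjusted p = 2.14e-06) was higher in OVCAR3. The olaparib change of TCHH differed between the lines in the test over all libraries (1.94, SE 0.601, edgeR adjusted p = 0.0439). In OVCAR3 alone its change was not called (-0.38, edgeR adjusted p = 0.436). In UWB1.289 TCHH did not pass the filter on low counts, with 15 counts with DMSO and 42 with olaparib, so this difference is uncertain. Of 20 genes of desmosomes and keratin linkers, which anchor keratin filaments at the membrane, 0 of 16 tested rose and 1 fell in OVCAR3 with olaparib, and 0 of 14 were called in UWB1.289. The gene that fell was the desmosomal cadherin DSC1 (-1.11, SE 0.451, 95% interval -2.05 to -0.17, edgeR adjusted p = 0.0798). It was called narrowly, at an average count of 11.6, with 13 to 17 counts per library with DMSO and 1 to 13 with olaparib. DSC2, of the same family, was just below 2-fold in OVCAR3 (-0.997, SE 0.0813, edgeR adjusted p = 2.17e-08) and at -0.58 in UWB1.289 (edgeR adjusted p = 0.00345). Between the lines 3 of 16 were higher in UWB1.289 and 4 in OVCAR3, beside 18.7% and 19.7% of all tested genes. The largest differences were those of the cadherins DSC3 (-5.04) and DSC2 (-2.65), higher in OVCAR3, and of EPPK1 (epiplakin, 1.90) and PKP4 (plakophilin 4, 1.33). DSC3 had 8 counts in all in UWB1.289 with DMSO and 268 in OVCAR3, so the size of its difference is uncertain.

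Of 14 other intermediate filament genes, 3 of 9 tested rose in OVCAR3 with olaparib and none fell, beside 2.90% and 2.33% of all tested genes. They were NEFH (a neurofilament subunit, 1.82, SE 0.367, edgeR adjusted p = 0.00107), NES (nestin, 1.46, SE 0.152, edgeR adjusted p = 6.42e-07) and VIM (vimentin, the filament of mesenchymal cells, 1.15, SE 0.327, edgeR adjusted p = 0.0136). NEFH had an average count of only 11.8, with 4 to 6 counts per library with DMSO and 17 to 22 with olaparib. VIM was at 1.22 to 2.64 CPM before and 2.79 to 4.78 CPM after in OVCAR3, and at 49.8 to 81.4 and 54.7 to 80.8 CPM in UWB1.289. Its change differed between the lines (-1.07, SE 0.328, edgeR adjusted p = 0.0413), and so did that of BFSP1, a lens filament gene (1.04, SE 0.372, edgeR adjusted p = 0.0891). With DMSO, VIM was higher in UWB1.289 (5.23) and NES in OVCAR3 (-3.80), 2 of 8 tested, beside 38.4% of all tested genes. In UWB1.289 NEFM (another neurofilament subunit) was the only one of 8 called with olaparib (1.11, SE 0.341, edgeR adjusted p = 0.0429), beside 2.21% of all tested genes. Of 15 epithelial transcription factors, SOX9 (2.18, SE 0.137, edgeR adjusted p = 5.72e-10) and OVOL1 (1.55, SE 0.243, edgeR adjusted p = 8.40e-05) rose in OVCAR3. That is 2 of 13 tested, beside 2.90% of all tested genes, and none of 12 was called in UWB1.289. For both the change differed between the lines, by -2.07 for SOX9 (SE 0.192, edgeR adjusted p = 9.25e-09) and by -1.32 for OVOL1 (SE 0.312, edgeR adjusted p = 0.00672). With DMSO, 2 of 13 factors were higher in UWB1.289 and 6 in OVCAR3, beside 18.7% and 19.7% of all tested genes. The largest fitted differences were those of ZNF750 (-7.98), TFAP2A (-4.51), SOX9 (2.74) and ELF3 (-2.64). ZNF750 had 0 counts in UWB1.289 with DMSO, at the floor, and 125 in OVCAR3, so the size of its difference is not measured. TP63, the factor of basal keratin expression, had at most 4 counts in any library. The median log2 fold change with olaparib in OVCAR3 was -0.12 for the desmosome list, 0.30 for the other filaments and -0.20 for the factors, beside -0.01 for all tested genes.

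For the 5 members called with olaparib, the genes with the closest profile over the 4 group means were found as the smallest distance between centred mean log2 CPM, among 14242 other tested genes. They were ERP27 (distance 0.0439) and ALG14 (0.104) for KRT8, LINC00667 (0.136) and HCFC1R1 (0.149) for KRT18, F2RL1 (0.0943) and DLGAP3 (0.256) for KRT17, SAMD11 (0.496) and APLP1 (0.657) for KRT23, and FLNC (0.166) and RSPO4 (0.270) for KRT81. The distances rest on 4 group means and are a description. For KRT23 the closest genes were farther away than for the other 4.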

How the data were processed

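The authors made QuantSeq 3′ mRNA libraries, and used single-end reads, which were trimmed (BBDuk), mapped to hg38 (STAR 2.7.9a, 2-pass) and assigned to genes of GENCODE release 38 (featureCounts 2.0.0). The deposited values are raw counts for 59428 genes in 16 libraries, and no column was left over. Strand setting and multi-mapped reads are not given in the sources used here. The members and lists were chosen with earlier results of these data known.

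Here, R 4.3.3 and edgeR 4.0.16 were used (TMM factors, genes kept by filterByExpr, quasi-likelihood tests, p-values adjusted after Benjamini and Hochberg over every tested gene). SEs were obtained as the absolute log2 value over the root of the F statistic, and intervals use the t distribution of the fit. All 10 members were named. From each list the called genes (at most 4 per comparison, largest first) and KRT14, KRT6A, KRT6B, KRT16 and KRT86 were named, as were the 2 nearest profiles. Other genes (KRT6C, FLG-AS1, FLG2, HRNR, IVL, LORICRIN, TP63, and DSC2 and VIM where not called) were chosen after their values were seen. The labels' series text says the experiment was repeated 4 times, so p-values measure the spread between these repeats. Within groups 0 pairs of libraries were identical, and a chi-square comparison of their counts gave at least 3.03 per gene for every pair.

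Alternatives were DESeq2 1.42.0, its size factors, no filter, other limits for a call, all 16 libraries in 1 fit, the replicate number as a block, pseudogene counts added, KRT81 and KRT86 added, and each library left out. Deviations of libraries with the same number correlated by 0.121 to 0.175 in UWB1.289 (11276 genes) and by 0.0404 to 0.134 in OVCAR3 (11492 genes). In UWB1.289 each value exceeded the highest one with another number, for replicate 1 only narrowly (0.126 against 0.115). In OVCAR3 this held for replicates 2, 3 and 4 but not for replicate 1 (0.0825 against 0.102). The main tests did not treat the numbers as pairs in either line. The replicate block was run only as an alternative. The tests were tried on simulated data with 200 changed genes in each comparison. Both tools recovered all 200, with 2 to 7 false calls. All 200 changes were set clearly past the fold limit, in genes averaging above 50 counts. Recovery of changes near the fold limit or at low counts was therefore not examined.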

Additional observations from a re-analysis of the deposited data

Results flagged for a closer look

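The olaparib effect differed between the lines for 4 keratins by the test of the difference itself (edgeR, all 16 libraries, adjusted p below 0.1). The log2 differences, UWB1.289 minus OVCAR3, were 0.76 for KRT8, 0.62 for KRT18, 0.60 for KRT19 and -0.36 for KRT7, none of them past 2-fold. The doses also differed between the lines.

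In 34 groups of 4 libraries with more than 3 counts in some library, 2 had a library far from the other 3, where chance gives about 1 in 20. KRT7 was at 439 CPM in OVCAR3 olaparib replicate 4 and at 373 to 383 CPM in the others. KRT23 was at 0.659 CPM in UWB1.289 DMSO replicate 4, which is 5 counts, and at 0.150 to 0.166 CPM, 1 count each, in the others.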

How the results depend on the processing

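Of 645 single-gene values under an alternative, 619 kept their direction and their side of the limits. Dropping the fold limit gave 9 called members in OVCAR3 with olaparib in place of 5 (KRT7 and KRT80 by a narrow margin, lost under several alternatives), 3 in place of 1 in UWB1.289, and 4 in place of 0 for the difference between the lines. An average count above 50 left 0 in UWB1.289 and removed KRT81 in OVCAR3 and KRT23 between the lines. Leaving out each library gave 4 to 5 members in OVCAR3 with olaparib and 1, 7 and 0 in the other comparisons. Directions turned only for KRT80, FLG and KRT17. KRT80 in UWB1.289, near 0, ran from -0.043 to 0.063. The difference between the lines ran from -0.67 to 0.23 for FLG, which is no measurement of a change at its UWB1.289 counts. For KRT17, at the floor in neither line, that difference ran from -0.13 to 0.47, beside 0.27 (SE 0.378) in the main fit. Its sign turned on leaving out a single library. With the replicate block, the number of members called was 5, 1, 7 and 0 in OVCAR3, UWB1.289, between the lines and for the difference, and it changed no member's call, although the adjusted p of KRT81 (0.00748) and KRT7 (0.0730) in UWB1.289 came below 0.1. Pseudogenes of KRT8 and KRT18 held at most 0.344% of their parents' counts, and adding them changed no call.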
